A study of Rattus norvegicus with 6 samples.

Results

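Genes of nucleic acid sensing and of the interferon response moved in both directions in H9c2 cells without Nono. Isg15, Usp18, Irf7, Irf5 and Ifi35 rose, whereas the kinases Jak1 and Tbk1 and the DNA sensor Cgas fell. The most familiar virus-induced genes, among them Rsad2, Mx1, Ifit2, Ifit3 and Oas1a, were close to 0 counts in both genotypes. The genes were taken from a list of 51 names drawn up for this response, and 50 of the 16319 genes in the count table were on it. Rigi was counted under its older symbol Ddx58. The list was read in 3 roles, namely sensors with their adaptors and regulators (10 genes with counts), signaling (19 genes) and interferon-stimulated genes (21 genes).

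Cells detect foreign or misplaced nucleic acid with sensors of DNA (Cgas, which signals through Sting1) and of RNA (Ddx58 and Ifih1, which signal through Mavs). Both routes converge on the kinases Tbk1 and Ikbke, which activate the transcription factors Irf3 and Irf7 and so switch on type I interferon. Secreted interferon binds the Ifnar1 and Ifnar2 receptor, whose kinases Jak1 and Tyk2 activate a complex with Stat2 and Irf9 that binds the interferon-stimulated response element (ISRE) at interferon-stimulated genes. Interferon gamma uses the separate receptor of Ifngr1 and Ifngr2, with Jak1 and Jak2. Nono is a nuclear RNA- and DNA-binding protein of paraspeckles, and in human dendritic cells it has been linked to Cgas in the nucleus.

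H9c2 is an embryonic rat heart myoblast line. The study asked how loss of Nono alters these cells. Nono-KO cells were 1 cell line, transfected by PEI with the pSpCas9(BB)-2A-Puro (PX459) plasmid carrying a guide RNA against Nono, selected with puromycin, and homozygous for a short frameshifting deletion. WT cells were H9c2 of wild-type genotype, and pEGFP-N1 served as the control plasmid in the transfection. No infection, nucleic acid or interferon treatment is named for either group. Each genotype had 3 poly(A) RNA-seq libraries, Nono-KO 1 to 3 and WT 1 to 3. As all Nono-KO libraries came from 1 line, p-values describe the spread between these libraries, and features of the line cannot be told apart from loss of Nono.

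The Nono-KO libraries held 17612958 to 18770188 counts and the WT libraries 18138400 to 19253858 counts. Levels are CPM (counts scaled to a common library size, here with TMM factors), and 3 counts in a library correspond to 0.149 to 0.175 CPM. Nono, the edited gene, had 109, 94 and 96 counts in Nono-KO cells, against 7329, 5884 and 5519 counts in WT cells. WT 1 stood apart from WT 2 and WT 3 on the second principal component (29.1 against -15.3 and -11.1), which carried 4.96% of the variance. The myoblast genes Myod1 (150.5 CPM in Nono-KO and 125.9 CPM in WT) and Cdh15 were abundant in both groups. The 8 myoblast markers with counts summed to 4624 to 4788 CPM in Nono-KO against 5135 to 5788 CPM in WT. Most of that sum was Vim alone, with a mean of 3763 CPM in Nono-KO and 4754 CPM in WT, so its direction is that of Vim. Myogenic genes moved strongly, since Myog (4.03), Des (2.13) and Mymk (1.69) rose on the log2 scale while Vim (-0.34) and Mef2c (-1.62) fell. The 13 cardiomyocyte markers summed to 288 to 323 CPM in Nono-KO against 126 to 213 CPM in WT. Tnnt2 contributed most to that difference, with 111, 135 and 137 CPM in Nono-KO against 13.4, 78.0 and 83.0 CPM in WT. WT 1 was far below the other WT libraries, and Tnnt2 did not pass (adjusted p = 0.18 from edgeR). Gata4, Hand2 and Myh6 did not pass either. Of the 13 markers Actc1 (3.71), Myl4 (2.05) and Nkx2-5 (0.96) rose, whereas Ryr2, Nppa and Myl7 had 0 to 2 counts in every library. Of 10 leukocyte markers with counts, Itgam, Laptm5 and Tyrobp had at most 3 counts over all 6 libraries, and the summed level of the list was 83.3 to 86.4 CPM in Nono-KO against 40.1 to 50.03 CPM in WT. That difference came mostly from Cd3e, a subunit of the T-cell receptor complex, with 871, 881 and 988 counts in Nono-KO and 69, 137 and 130 counts in WT. The 6 endothelial markers with counts summed to at most 1.27 CPM in Nono-KO and 4.45 CPM in WT. The part of other cell types and of the shift in myogenic genes in the values that follow was not tested. In bulk RNA, a change in the number of cells with a transcript and a change per cell cannot be told apart.

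Of the 50 genes, 41 had enough counts to be tested. At an adjusted p under 0.05 from edgeR, adjusted over all genes, 18 rose, 10 fell and 13 did not pass. Most genes of these cells passed the same test, 34.2% of the 12028 genes tested rose and 38.1% fell, together 72.2%, so a change as such did not set the list apart. The list held 43.9% that rose and 24.4% that fell, and the difference from all genes was not tested. Log2 fold changes are those of Nono-KO over WT throughout, and their median was 0.24 over the list and -0.05 over all genes tested. With the stricter limits of the study (adjusted p under 0.01, log2 fold change beyond 1 in size), 8 genes were higher (19.5%, against 10.8% of all genes) and 4 were lower (9.76%, against 18.7%). Every Nono-KO library lay above every WT library for 20 genes (48.8%, against 36.1% of all genes) and below for 10 genes (24.4%, against 39.0%), so 73.2% of the list did not overlap, close to the 75.1% of all genes.

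**Figure D1:**
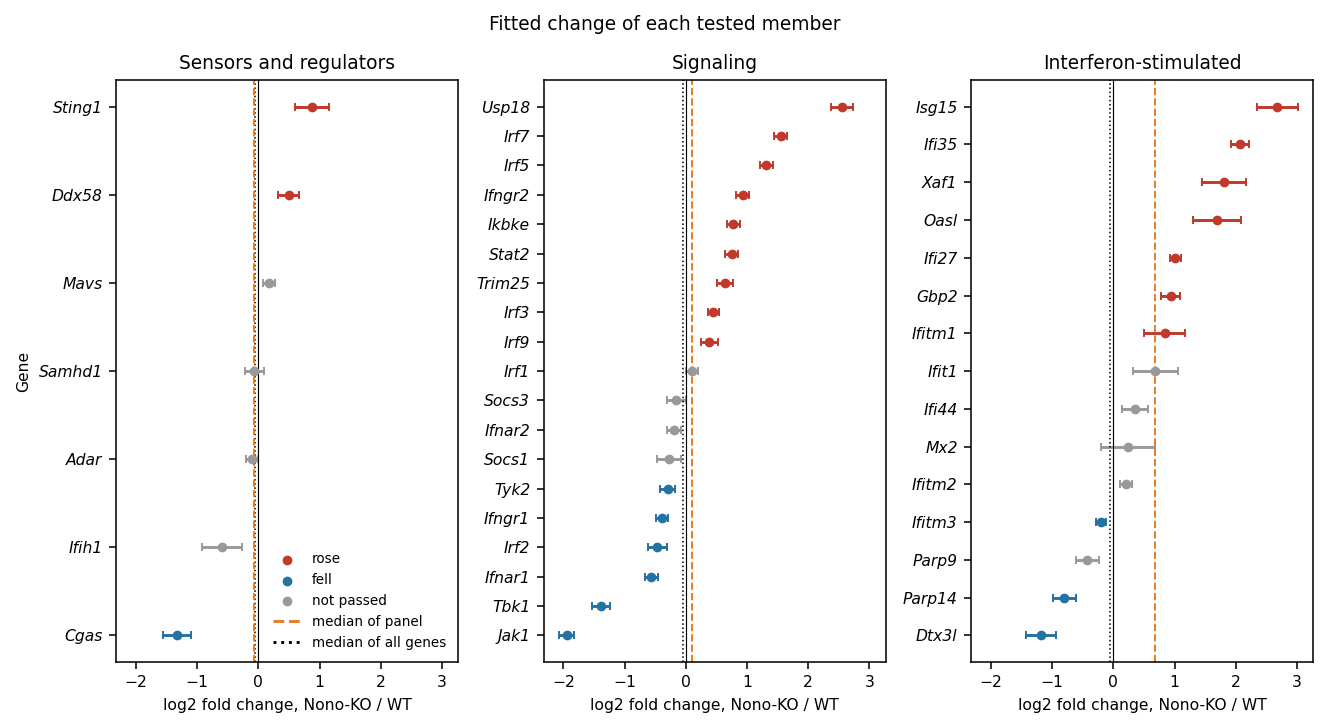
Fitted log2 fold change, Nono-KO over WT, of the 41 genes tested, in 3 panels by role, with bars of 1 standard error. Red genes rose and blue genes fell at an adjusted p under 0.05, grey genes did not pass, the orange dashed line is the median of the panel (-0.07, 0.10 and 0.68 from left to right) and the dotted line the median of all genes (-0.05). Values run from -1.95 for Jak1 to 2.68 for Isg15.

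The sensors showed no common direction. Of the 7 tested, Sting1 and Ddx58 rose (28.6%, against 34.2% of all genes), Cgas fell (14.3%, against 38.1%) and 4 did not pass. Their median log2 fold change was -0.07. The DNA-sensing arm was split, because Cgas fell while its partner Sting1 rose. Cgas, the enzyme that makes cyclic GMP-AMP when it binds DNA, had 2.81, 3.23 and 4.97 CPM in Nono-KO libraries, against 7.61, 10.6 and 9.62 CPM in WT libraries. All Nono-KO values lay below all WT values, and Cgas fell by 1.33 on the log2 scale (standard error 0.23, adjusted p = 0.000248 from edgeR). Sting1, the endoplasmic reticulum adaptor that binds cyclic GMP-AMP, had 3.80, 3.50 and 2.43 CPM in Nono-KO, against 2.39, 1.34 and 1.56 CPM in WT. Nono-KO 3 and WT 1 were nearly equal, and the rise by 0.87 (standard error 0.28, adjusted p = 0.0144) was lost without Nono-KO 1 (0.75, adjusted p = 0.0586) or without WT 3 (0.78, adjusted p = 0.0538).

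Of the RNA sensors, Ddx58 rose, while Ifih1 and the adaptor Mavs did not pass. Ddx58 (RIG-I), which recognises RNA with a 5′ triphosphate, had 5.85, 6.51 and 6.72 CPM in Nono-KO, against 4.97, 4.12 and 4.45 CPM in WT. Its groups did not overlap and it rose by 0.49 (standard error 0.17, adjusted p = 0.0209), but the call was lost without Nono-KO 2 (adjusted p = 0.065), WT 2 (0.0666) or WT 3 (0.0598). Ifih1 (MDA5), the sensor of long double-stranded RNA, had 1.05, 0.779 and 0.741 CPM in Nono-KO, against 0.995, 1.76 and 1.11 CPM in WT. Nono-KO 1 fell within the WT range, and the value of -0.59 did not pass (standard error 0.33, adjusted p = 0.123). Mavs, the mitochondrial adaptor of both, had 36.9, 38.0 and 36.2 CPM in Nono-KO, against 30.5, 32.0 and 36.0 CPM in WT. These values abut at Nono-KO 3 and WT 3, and the log2 fold change of 0.17 did not pass (adjusted p = 0.131).

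Adar and Samhd1, read with the sensors as regulators, also did not pass. Adar, which edits double-stranded RNA, averaged 37.9 ± 2.03 CPM in Nono-KO and 40.8 ± 3.43 CPM in WT (SD, n = 3 each). Samhd1, which hydrolyses deoxynucleotides, averaged 6.23 ± 0.414 CPM in Nono-KO and 6.54 ± 0.214 CPM in WT. For both, the groups overlapped. Dhx58 (LGP2), Zbp1 and Tlr3 were too low to be tested. Dhx58, a helicase that modulates Ddx58 and Ifih1, had 12, 10 and 9 counts in Nono-KO and 3, 5 and 5 counts in WT. These groups did not overlap, and without the filter on low counts Dhx58 passed, so that 3 sensors rose. Zbp1, a sensor of Z-form nucleic acid, had 3, 1 and 3 counts in Nono-KO and 5, 3 and 3 counts in WT. Tlr3, the endosomal receptor of double-stranded RNA, had at most 1 count in any library. A difference in Zbp1 or Tlr3 was not detectable at this depth. According to RefSeq, Cgas overlaps Ddx43, which had 0 to 2 counts in every library.

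**Figure D2:**
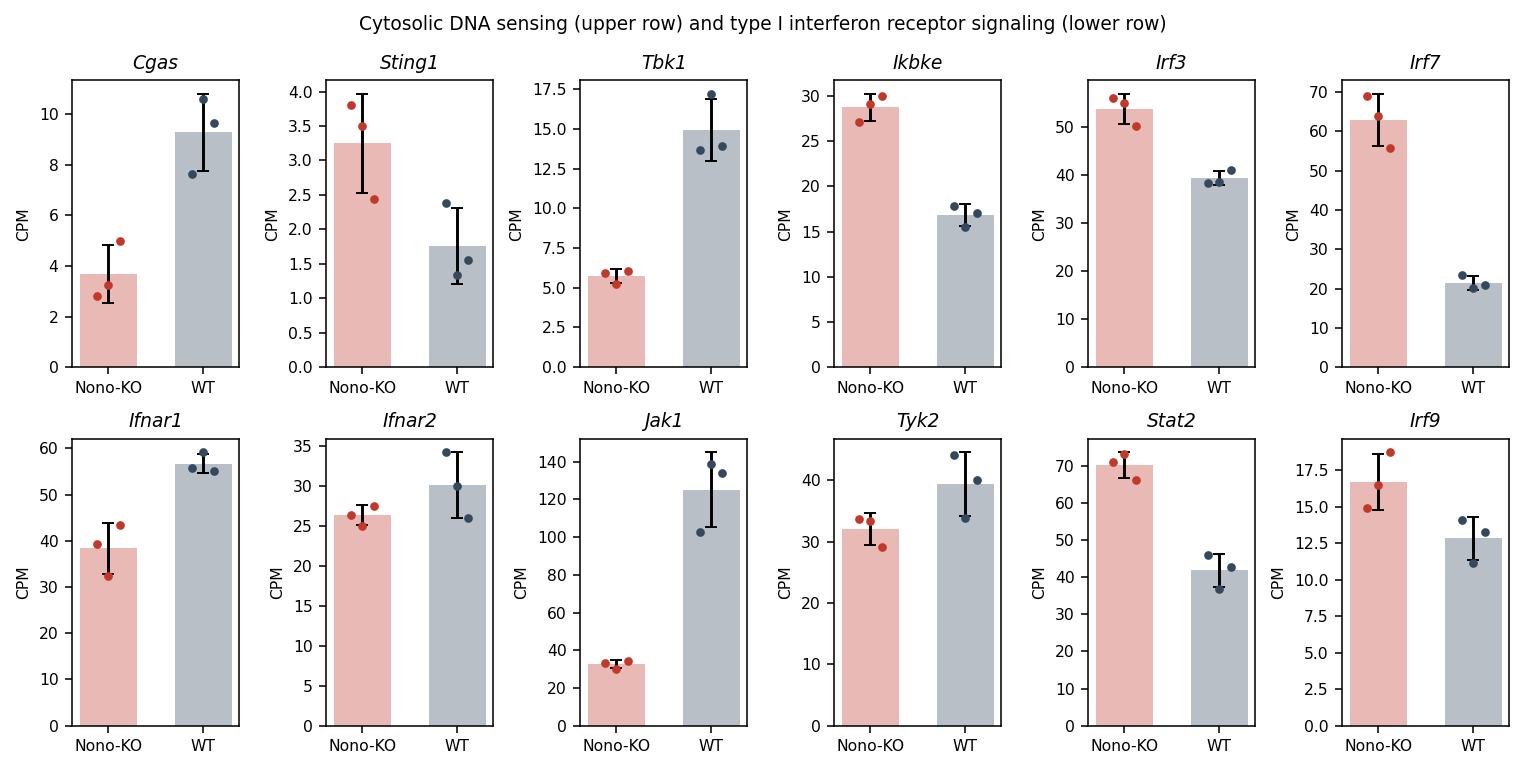
CPM of 6 genes of DNA sensing (upper row) and 6 genes of the type I interferon receptor pathway (lower row), Nono-KO left of WT in each panel. Bars are group means, whiskers the SD and points the 3 libraries of each group. Cgas, Tbk1, Ifnar1, Jak1 and, narrowly, Tyk2 are lower in Nono-KO with no overlap. Ikbke, Irf3, Irf7, Stat2, Irf9 and, narrowly, Sting1 are higher with no overlap. Ifnar2 overlaps (26.3 CPM in Nono-KO and 30.1 CPM in WT).

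All 19 signaling genes could be tested, with a median log2 fold change of 0.10. Of these, 9 rose (47.4%, against 34.2% of all genes), 6 fell (31.6%, against 38.1%) and 4 did not pass. The pair of kinases downstream of the sensors moved in opposite directions. Tbk1, the main kinase of Irf3, had 5.90, 5.23 and 6.03 CPM in Nono-KO, against 13.7, 17.2 and 14 CPM in WT. Each Nono-KO library was below every WT library by a wide margin, and Tbk1 fell by 1.38 (standard error 0.15, adjusted p = 8.39e-06). Ikbke, its close relative, had 27.1, 29.1 and 30.0 CPM in Nono-KO, against 17.9, 15.4 and 17.1 CPM in WT. The groups did not overlap, and Ikbke rose by 0.78 (standard error 0.11, adjusted p = 5.94e-05). Trim25, a ubiquitin ligase linked to Ddx58 signaling, averaged 17.6 ± 1.03 CPM in Nono-KO and 11.3 ± 1.45 CPM in WT and rose by 0.64.

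Of the interferon regulatory factors, Irf7, Irf5, Irf3 and Irf9 rose, Irf2 fell and Irf1 did not pass. Irf7, the factor that amplifies type I interferon and is itself interferon-inducible, had 69.0, 63.8 and 55.8 CPM in Nono-KO, against 23.5, 20.2 and 20.9 CPM in WT. The Nono-KO libraries were well above the WT libraries, and Irf7 rose by 1.55 (standard error 0.11, adjusted p = 3.54e-07). Irf5, which acts downstream of Toll-like receptors, had 34.6, 33.3 and 31.9 CPM in Nono-KO, against 14.5, 12.6 and 13.1 CPM in WT. Libraries within each genotype were tightly grouped, and Irf5 rose by 1.31 (standard error 0.11, adjusted p = 1.12e-06). Irf3, the factor that Tbk1 phosphorylates, averaged 53.8 ± 3.15 CPM in Nono-KO and 39.5 ± 1.49 CPM in WT, with a log2 fold change of 0.45 (adjusted p = 0.000764). Irf3 overlaps Bcl2l12 in the RefSeq annotation, and Bcl2l12 also rose (47.2 ± 2.03 CPM in Nono-KO and 24.6 ± 1.80 CPM in WT), so reads of the pair may have been divided in a way that the counts do not show.

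Irf9, Irf2 and Irf1 gave weaker or less stable calls. Irf9, the DNA-binding subunit of the interferon-activated complex, had 14.9, 16.5 and 18.7 CPM in Nono-KO, against 14.1, 11.2 and 13.2 CPM in WT. Its groups were separate but close, and the log2 fold change of 0.38 (adjusted p = 0.0274) did not pass without Nono-KO 2 (adjusted p = 0.0518), Nono-KO 3 (0.0807), WT 2 (0.107) or WT 3 (0.0533). The call of Irf9 was also lost with total counts (adjusted p = 0.0691). Irf2, which can repress interferon-induced promoters, averaged 8.26 ± 0.758 CPM in Nono-KO and 11.4 ± 1.55 CPM in WT. It fell by 0.46 (adjusted p = 0.0172), a call lost without Nono-KO 1 (-0.39, adjusted p = 0.0835). Irf1, an activator of many interferon gamma targets, averaged 30.0 ± 0.846 CPM in Nono-KO and 28.0 ± 1.67 CPM in WT, and its libraries overlapped.

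Among the receptor chains, those of one receptor did not move alike. Ifnar1, a chain of the type I receptor, had 39.3, 32.4 and 43.4 CPM in Nono-KO, against 55.8, 59.2 and 55.2 CPM in WT. It fell by 0.56 (standard error 0.11, adjusted p = 0.000679). Its partner Ifnar2 averaged 26.3 ± 1.25 CPM in Nono-KO and 30.1 ± 4.12 CPM in WT, which overlapped, and its value of -0.19 (adjusted p = 0.163) passed only without WT 3 (-0.29, adjusted p = 0.0465). For interferon gamma, Ifngr2 rose whereas Ifngr1 fell. Ifngr2 had 72.2, 69.9 and 64.1 CPM in Nono-KO, against 31.5, 36.5 and 40.5 CPM in WT, a rise by 0.93 (standard error 0.11, adjusted p = 1.2e-05). Ifngr1, the ligand-binding chain, averaged 25.9 ± 1.35 CPM in Nono-KO and 34.1 ± 0.389 CPM in WT, a fall by 0.40 (adjusted p = 0.00292). Ifnar2, Il10rb, Ifnar1 and Ifngr2 lie next to each other in the RefSeq annotation, so neighbouring genes here moved in opposite directions.

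The largest fall of the list was that of Jak1, the kinase shared by the type I and type II receptors. Jak1 had 33.0, 30.2 and 34.3 CPM in Nono-KO, against 103, 139 and 134 CPM in WT. The Nono-KO libraries were far below every WT library, of which WT 1 was the lowest, and the fall was by 1.95 (standard error 0.12, adjusted p = 1.68e-07). Tyk2, the other kinase of the type I receptor, had 33.7, 33.4 and 29.1 CPM in Nono-KO, against 44.2, 33.8 and 40.0 CPM in WT. WT 2 almost touched the Nono-KO range, and the fall by 0.30 (adjusted p = 0.0379) was lost in 5 of the 6 fits that left out 1 library, with adjusted p-values up to 0.194 without Nono-KO 3, and with DESeq2 (0.0876) or RLE scaling (0.0888). Stat2, the signal transducer of the type I pathway, had 71.2, 73.2 and 66.4 CPM in Nono-KO, against 45.9, 36.9 and 42.7 CPM in WT. It rose by 0.75 with no overlap (standard error 0.10, adjusted p = 3.87e-05).

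Inhibitors of the pathway were split between a strong rise of Usp18 and no change that passed for Socs1 and Socs3. Usp18, which removes Isg15 from proteins and also blocks signaling at Ifnar2, had 30.5, 29.3 and 30.4 CPM in Nono-KO, against 3.48, 5.83 and 6.17 CPM in WT. The corresponding counts were 522, 527 and 574 in Nono-KO and 70, 109 and 111 in WT. Nono-KO libraries were almost identical to each other, WT 1 was the lowest WT library, and Usp18 rose by 2.55 (standard error 0.18, adjusted p = 3.62e-07). Socs1, an inhibitor of Jak kinases, averaged 4.67 ± 0.746 CPM in Nono-KO and 5.65 ± 0.993 CPM in WT, which overlapped. Socs3, an inhibitor best known from Stat3 signaling, had 72.7, 69.1 and 64.9 CPM in Nono-KO, against 55.2, 83.9 and 91.8 CPM in WT. WT 1 lay below and the other WT libraries above the Nono-KO range, so that Socs3 did not pass with all libraries (-0.16, adjusted p = 0.38) and passed without WT 1 (-0.36, adjusted p = 0.00229).

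**Figure D3:**
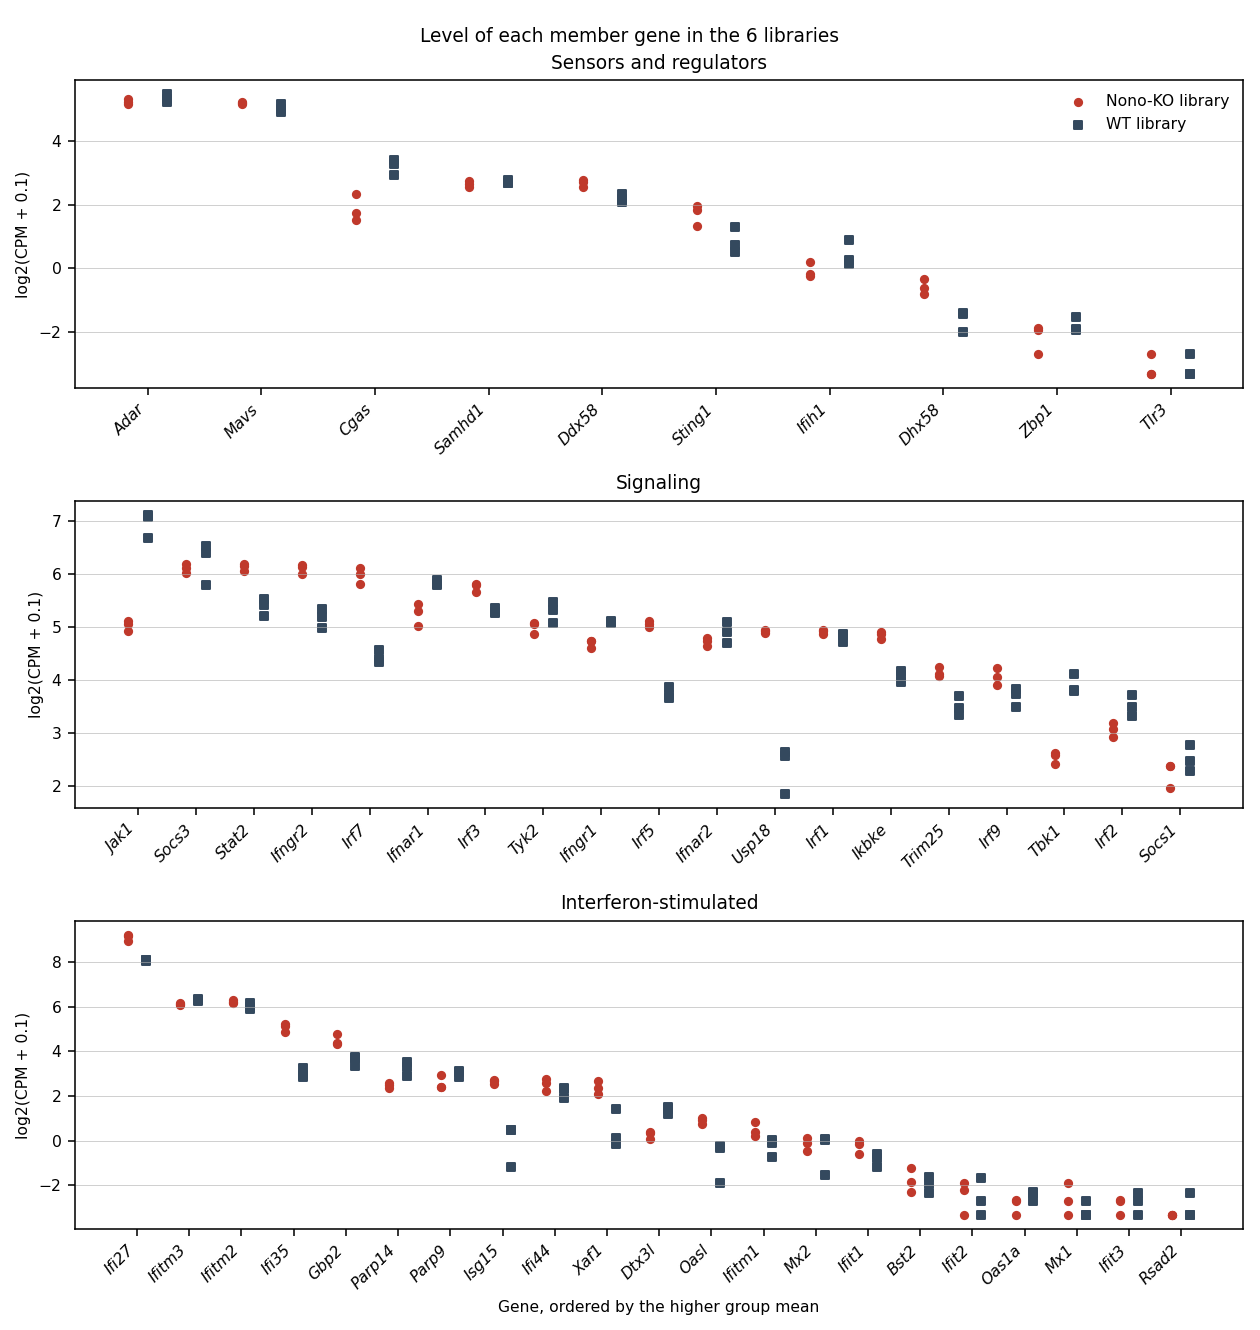
Level of the 50 genes with counts in each library as log2(CPM + 0.1), Nono-KO as red circles left of WT as dark squares, in 3 panels by role. CPM is not divided by transcript length, so heights are to be compared within a gene. The bottom right of the lowest panel holds Bst2, Ifit2, Oas1a, Mx1, Ifit3 and Rsad2, each with at most 6 counts in any library.

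The interferon-stimulated genes divided into those that rose, some that fell, and classical members that were hardly expressed. Of the 15 tested, 7 rose (46.7%, against 34.2% of all genes), 3 fell (against 38.1% of all genes) and 5 did not pass. The median log2 fold change was 0.68, against -0.05 over all genes tested, and the difference from all genes was not tested. Isg15, the ubiquitin-like protein that is attached to other proteins after interferon, showed the largest rise of the list. Isg15 had 6.49, 5.79 and 6.25 CPM in Nono-KO, against 0.348, 1.28 and 1.28 CPM in WT, that is 111, 104 and 118 counts in Nono-KO and 7, 24 and 23 counts in WT. All Nono-KO libraries were far above all WT libraries, of which WT 1 was the lowest. The rise was by 2.68 (standard error 0.33, adjusted p = 2.1e-05). That of Usp18 was close to it (2.55, standard error 0.18), and the order of these genes was not tested. Ifi35, a partner of Nmi in innate signaling, had 37.5, 34.5 and 29.3 CPM in Nono-KO, against 9.45, 7.54 and 7.18 CPM in WT. It rose by 2.06 with no overlap (standard error 0.15, adjusted p = 3.49e-07).

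Ifi27, a small mitochondrial protein induced by type I interferon, had 571, 587 and 485 CPM in Nono-KO, against 266, 274 and 275 CPM in WT. The WT libraries were nearly equal, and Ifi27 rose by 1.01 (standard error 0.09, adjusted p = 1.62e-06). Xaf1, an antagonist of the apoptosis inhibitor XIAP, had 4.21, 4.95 and 6.25 CPM in Nono-KO, against 2.54, 0.802 and 1.00 CPM in WT. WT 1 was well above the other WT libraries, and the rise by 1.81 (standard error 0.36, adjusted p = 0.000693) became 2.5 without WT 1. Gbp2, an interferon-induced GTPase that attacks intracellular pathogens, had 20.3, 20.9 and 27.7 CPM in Nono-KO, against 10.0, 13.1 and 12.8 CPM in WT. Gbp2 rose by 0.94 (standard error 0.16, adjusted p = 0.000213), though reads from other Gbp genes may be shared with it. Oasl, a homolog of the oligoadenylate synthetases, had 27, 35 and 34 counts in Nono-KO and 15, 13 and 3 counts in WT, and rose by 1.70 (standard error 0.39, adjusted p = 0.00203).

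The 3 Ifitm genes, which encode membrane proteins that block virus entry and lie side by side in the genome, went different ways. Ifitm1 averaged 1.33 ± 0.329 CPM in Nono-KO and 0.747 ± 0.219 CPM in WT and rose by 0.84 (adjusted p = 0.0391). That call was lost without Nono-KO 1 (adjusted p = 0.0599), Nono-KO 3 (0.144), WT 1 (0.121) or WT 3 (0.0611), and with DESeq2 (0.13), no filter (0.0572), total counts (0.0558) or the replicate block (0.0537). Ifitm2 averaged 74.6 ± 3.81 CPM in Nono-KO and 64.7 ± 6.38 CPM in WT and did not pass (adjusted p = 0.0706). It passed without WT 1 (0.28, adjusted p = 0.0089) and with RLE scaling (0.26, adjusted p = 0.0279). Ifitm3 had 67.0, 68.4 and 71.4 CPM in Nono-KO, against 81.9, 78.1 and 76.8 CPM in WT. Its groups were separate, and the fall by 0.19 was just past the threshold (adjusted p = 0.0495), lost when any library other than WT 3 was left out (adjusted p = 0.0729 to 0.211) and with DESeq2 (0.148), RLE scaling (0.157), the stricter filter (0.0627) or the replicate block (0.137). The 3 sequences are similar, and reads may have been shared among them.

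Dtx3l and Parp14, neighbours with roles in ADP-ribosylation, fell in Nono-KO cells, and the nearby Parp9 did not pass. Dtx3l, a ubiquitin ligase, had 1.23, 0.946 and 1.16 CPM in Nono-KO, against 2.19, 2.78 and 2.61 CPM in WT, a fall by 1.18 (standard error 0.25, adjusted p = 0.00111). Parp14, a mono-ADP-ribosyltransferase next to it, had 5.85, 5.45 and 5.03 CPM in Nono-KO, against 7.41, 11.3 and 9.79 CPM in WT. Parp14 fell by 0.80 with no overlap (standard error 0.18, adjusted p = 0.00202). Parp9, the binding partner of Dtx3l, had 5.2, 5.17 and 7.46 CPM in Nono-KO, against 7.16, 8.28 and 8.62 CPM in WT. Nono-KO 3 was above WT 1, and the value of -0.43 (adjusted p = 0.0564) passed without Nono-KO 3 (-0.59, adjusted p = 0.0138) or without WT 1 (-0.51, adjusted p = 0.0215). With all libraries, Parp9 passed with no filter (adjusted p = 0.0412), total counts (0.0458) or the replicate block (0.0498). Dtx3l and Parp9 overlap in the RefSeq annotation, and their reads cannot be told apart where counting ignores strand.

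Ifit1, Ifi44 and Mx2 also did not pass. Ifit1, which binds foreign RNA caps, had 15, 10 and 15 counts in Nono-KO and 7, 9 and 10 counts in WT (adjusted p = 0.112). It overlaps Ifit1bl, which fell (6, 8 and 9 counts in Nono-KO and 26, 27 and 33 counts in WT), and reads may be shared between these similar genes. Ifi44, a cytoplasmic interferon-induced protein, averaged 5.76 ± 1.12 CPM in Nono-KO and 4.52 ± 0.786 CPM in WT, with overlap. Mx2, a dynamin-like GTPase, averaged 0.818 ± 0.183 CPM in Nono-KO and 0.701 ± 0.392 CPM in WT, with overlap.

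The 6 interferon-stimulated genes below the filter include the usual first readouts of an interferon response. Rsad2 (viperin) had no count in Nono-KO and 2, 0 and 0 counts in WT. Mx1 had 0, 3 and 1 counts in Nono-KO and 0, 0 and 1 in WT. Both were thus at the limit of detection in each genotype. Ifit2 had 2, 3 and 0 counts in Nono-KO and 0, 4 and 1 in WT. Ifit3 had 1, 1 and 0 counts in Nono-KO and 2, 0 and 1 in WT. These 2 RNA-binding tetratricopeptide genes and Oas1a, a synthetase that activates RNase L, did not separate the genotypes. Oas1a had 1, 1 and 0 counts in Nono-KO and 2, 2 and 1 in WT. Bst2 (tetherin), which holds budding virus at the membrane, had 3, 6 and 2 counts in Nono-KO and 2, 3 and 4 in WT. All 9 genes of the list below the filter summed to 0.794 to 1.45 CPM in Nono-KO and 0.796 to 0.962 CPM in WT. The interferon genes themselves were not analysed here.

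Promoter sequence was examined because the interferon-activated complex binds ISRE motifs and these genes moved in different directions. RefSeq windows (build GRCr8) from 250 bases before to 50 bases after the annotated start were found for 35 of the 50 genes. An ISRE was counted as GAAANNGAAA on either strand, and 15 of 35 windows (42.9%) held it, against 3.77% of all 27457 windows. A match was present in 4 of 13 windows of genes that rose (Irf7, Ifi27, Gbp2 and Xaf1), 3 of 6 of genes that fell (Ifitm3, Dtx3l and Parp14), 4 of 10 of genes that did not pass (Ifih1, Socs1, Ifi44 and Ifitm2) and 4 of 6 of genes too low to test (Ifit3, Oas1a, Rsad2 and Bst2). The motif thus stood in genes of each kind. The gamma-activated site TTCNNNGAA occurred in 9 of 35 windows (25.7%) against 8.68% of all windows, and overlapped an ISRE match only in Bst2. ISRE matches overlapped each other in the windows of Oas1a, Bst2 and Socs1. A match is a description of these letters and not evidence of binding.

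The windows of 7 genes are shown to set a similar motif beside different responses, 3 that rose, 2 that fell and 2 hardly counted. They lie at chr1:205799974-205800273 on the minus strand (Irf7), chr6:128355062-128355361 on the plus strand (Ifi27), chr10:57415685-57415984 on the plus strand (Xaf1), chr11:78407884-78408183 on the plus strand (Parp14), chr11:78319975-78320274 on the plus strand (Dtx3l), chr1:241527076-241527375 on the plus strand (Ifit3) and chr12:41330216-41330515 on the plus strand (Oas1a). Capitals mark the ISRE matches, which read TTTC first where the match is on the opposite strand.
Irf7: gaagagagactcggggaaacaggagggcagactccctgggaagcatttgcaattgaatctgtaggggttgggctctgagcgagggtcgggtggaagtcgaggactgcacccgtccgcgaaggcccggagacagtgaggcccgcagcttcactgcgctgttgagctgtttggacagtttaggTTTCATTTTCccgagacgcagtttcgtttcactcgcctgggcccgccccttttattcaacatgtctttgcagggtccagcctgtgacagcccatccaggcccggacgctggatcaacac
Ifi27: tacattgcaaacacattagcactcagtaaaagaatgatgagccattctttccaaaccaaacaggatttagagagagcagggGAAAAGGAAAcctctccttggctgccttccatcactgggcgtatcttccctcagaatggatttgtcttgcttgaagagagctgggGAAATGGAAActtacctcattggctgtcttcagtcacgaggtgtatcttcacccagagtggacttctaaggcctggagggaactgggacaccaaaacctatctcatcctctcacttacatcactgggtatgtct
Xaf1: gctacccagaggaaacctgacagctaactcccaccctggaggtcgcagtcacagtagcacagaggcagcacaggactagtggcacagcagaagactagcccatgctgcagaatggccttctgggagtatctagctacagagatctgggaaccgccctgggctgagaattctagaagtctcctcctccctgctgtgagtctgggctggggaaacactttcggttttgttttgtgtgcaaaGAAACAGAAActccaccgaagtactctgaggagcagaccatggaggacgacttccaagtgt
Parp14: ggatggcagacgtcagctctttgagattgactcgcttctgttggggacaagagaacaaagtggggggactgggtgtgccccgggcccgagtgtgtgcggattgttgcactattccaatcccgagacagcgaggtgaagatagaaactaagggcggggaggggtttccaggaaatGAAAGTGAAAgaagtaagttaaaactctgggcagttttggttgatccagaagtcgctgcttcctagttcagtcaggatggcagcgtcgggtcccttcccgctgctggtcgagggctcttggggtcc
Dtx3l: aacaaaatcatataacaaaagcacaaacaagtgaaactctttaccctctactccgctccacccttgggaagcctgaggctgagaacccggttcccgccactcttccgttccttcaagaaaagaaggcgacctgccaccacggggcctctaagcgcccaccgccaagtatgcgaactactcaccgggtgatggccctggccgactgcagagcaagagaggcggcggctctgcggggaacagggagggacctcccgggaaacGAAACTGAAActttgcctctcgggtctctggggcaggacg
Ifit3: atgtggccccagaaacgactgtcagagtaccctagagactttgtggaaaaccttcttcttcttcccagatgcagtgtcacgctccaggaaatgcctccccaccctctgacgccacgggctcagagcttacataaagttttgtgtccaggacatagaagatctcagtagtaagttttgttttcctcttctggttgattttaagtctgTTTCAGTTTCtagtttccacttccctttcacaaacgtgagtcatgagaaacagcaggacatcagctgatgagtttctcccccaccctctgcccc
Oas1a: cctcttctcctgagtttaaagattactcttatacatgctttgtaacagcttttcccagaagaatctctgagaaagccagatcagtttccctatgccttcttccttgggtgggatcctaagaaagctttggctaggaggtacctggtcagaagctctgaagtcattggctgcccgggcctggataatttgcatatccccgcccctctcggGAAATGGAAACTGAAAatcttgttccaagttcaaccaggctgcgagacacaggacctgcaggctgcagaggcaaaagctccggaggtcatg

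In Irf7 the match began 69 bases before the start, in Xaf1 11 bases, in Parp14 76 bases, in Ifit3 44 bases, and in Ifi27 the matches began 169 and 84 bases before it. In Oas1a a pair of overlapping matches began 41 and 35 bases before the start. In Dtx3l the match lay just after the start. Of these genes, Irf7, Ifi27 and Xaf1 rose, Parp14 and Dtx3l fell, and Ifit3 and Oas1a had at most 2 counts in any library.

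Uba7 and Ube2l6, which act on Isg15 before its ligase, rose, and the ligase gene Herc6 was hardly counted. They were looked up after the values of Isg15 and Usp18 had been seen. Uba7, the activating enzyme for Isg15, had 28.7, 27.5 and 22.7 CPM in Nono-KO, against 11.1, 7.06 and 8.51 CPM in WT. It rose by 1.56 with no overlap (standard error 0.17, adjusted p = 7.6e-06). Ube2l6, the conjugating enzyme, had 22.6, 23.9 and 22.8 CPM in Nono-KO, against 19.3, 15.4 and 15.9 CPM in WT, and rose by 0.45 (standard error 0.12, adjusted p = 0.00527). Herc6, the ligase that acts on Isg15 in mouse, had 1 count in Nono-KO 3 and none in the other libraries.

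**Figure D4:**
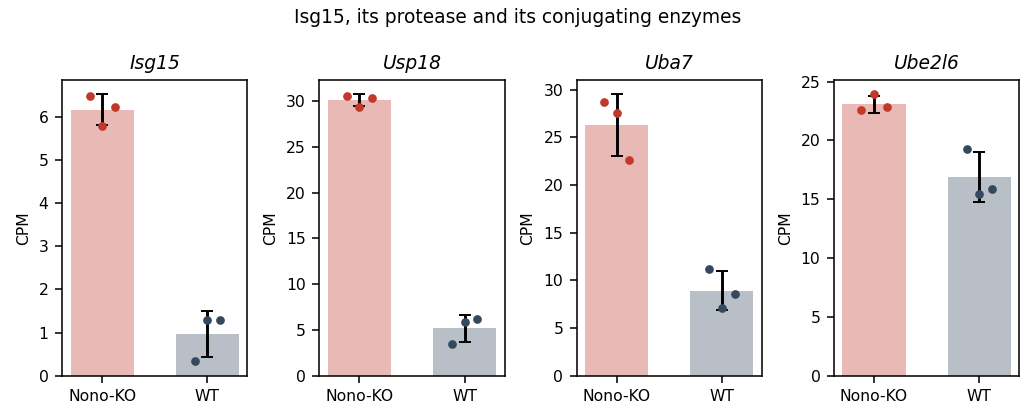
CPM of Isg15, its protease Usp18, its activating enzyme Uba7 and its conjugating enzyme Ube2l6, Nono-KO left of WT. Bars are means, whiskers the SD and points the 3 libraries of each group. Mean levels were 6.17 CPM in Nono-KO against 0.970 CPM in WT for Isg15, 30.1 against 5.16 CPM for Usp18, 26.3 against 8.90 CPM for Uba7 and 23.1 against 16.9 CPM for Ube2l6, and the groups do not overlap in any panel.

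A wider list of 147 other names from the same pathways was read in the same way, of which 107 were tested. Of these, 40 rose (37.4%) and 40 fell (37.4%), close to the shares of all genes, and the median log2 fold change was -0.04. Other sensing genes and adaptors were balanced, with 13 that rose and 13 that fell of 33 tested and a median of -0.05. Each share was 39.4%, against 34.2% of all genes that rose and 38.1% that fell. Trex1 (0.85), the exonuclease that removes cytosolic DNA, and Rnaseh2a (0.92), a subunit of RNase H2, rose. The other subunits of RNase H2 were split, as Rnaseh2c (0.78) rose and Rnaseh2b (-1.20) fell. The RNA helicase Dhx9 (-1.52) and the antiviral zinc-finger protein Zc3hav1 (-1.67) fell, as did Dhx36 (-1.53) and Lrrfip1 (-1.49). Nlrc5, the activator of MHC class I genes, had 134, 132 and 116 counts in Nono-KO, against 7, 2 and 3 counts in WT. It rose by 5.03 (standard error 0.32), or 5.63 without WT 1. Nlrx1, a mitochondrial relative, rose by 0.99.

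Of 27 other signaling genes tested, 15 fell (55.6%, against 38.1% of all genes) and 8 rose (29.6%, against 34.2%), with a median of -0.40, and the difference from all genes was not tested. Jak2, the kinase of the interferon gamma receptor beside Jak1, averaged 2.80 ± 0.592 CPM in Nono-KO and 10.5 ± 2.24 CPM in WT and fell by 1.90 (standard error 0.22). The coactivator Ep300 (-1.84), the NF-kappaB kinase Chuk (-1.78) and the SUMO ligase Pias1 (-1.52) also fell, while Pias3 (0.80), Pias4 (0.62), Traf2 (0.60) and Nmi (1.12) rose.

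Of 47 further interferon-stimulated genes tested, 19 rose (40.4%, against 34.2% of all genes) and 12 fell (25.5%, against 38.1%). Their median was 0.20, and the difference from all genes was not tested. Lgals9, a galectin, averaged 10.5 ± 1.29 CPM in Nono-KO and 1.54 ± 0.264 CPM in WT and rose by 2.78 (standard error 0.20). Parp10 (2.02), the helicase Helz2 (1.89) and Ifi27l2b (1.91), a neighbour and relative of Ifi27 that may share reads with it, rose as well. Nampt (-1.64), the rate-limiting enzyme of NAD salvage, Slfn13 (-1.46), Slfn2 (-0.92) and the nuclear body protein Sp100 (-1.35) fell. In this wider list an ISRE match was found in 10 of 34 windows of genes that rose (29.4%), 1 of 35 of genes that fell (2.86%), 7 of 22 of genes that did not pass (31.8%) and 9 of 19 of genes too low to test (47.4%). The share in genes that rose was thus close to that in genes that did not pass. In genes that fell it was far lower and near the 3.77% of all windows. These shares pool the roles, and most windows of genes that fell belonged to sensing or signaling genes. Outside the interferon-stimulated genes, only Myd88, Eif2ak2 and Nmi held a match, and no difference was tested.

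**Figure D5:**
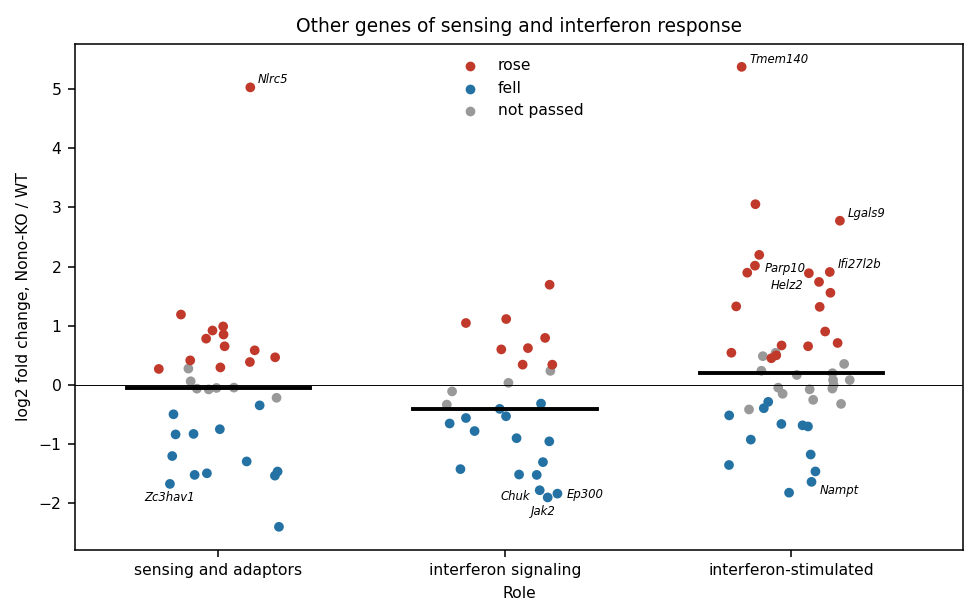
Fitted log2 fold change, Nono-KO over WT, of the 107 tested genes of the wider list, by role, with 1 point a gene and a black line at each median (-0.05, -0.40 and 0.20 from left to right). Red points rose, blue points fell and grey points did not pass. The highest points are Nlrc5 (5.03) and Tmem140 (5.38), the second of which had 23, 18 and 13 counts in Nono-KO against 1, 0 and 0 in WT and was named after its values were seen.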

How the data were processed

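RNA was measured by RNA-seq in 3 Nono-KO and 3 WT libraries of H9c2 cells, grouped by the genotype in the submitters' labels. The authors deposited raw counts per gene symbol from stranded mRNA libraries, with no scaling. For the processing, the submitters' notes list HTSeq, HISAT2 and Trimmomatic with mRatBN7.2, whereas the methods of the study name Bowtie2 and Rn6. Not given in the sources used here are the annotation and how strand was handled in counting. How reads of paralogs or overlapping genes were assigned is therefore unknown. ATAC-seq data were not analysed here.

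Counts were tested in R 4.3.3 with the quasi-likelihood F test of edgeR 4.0.16 (robust, TMM scaling, filterByExpr, which kept 12028 of 16319 genes), on genotype alone and with Benjamini-Hochberg adjustment over all genes tested. Standard errors are the size of the log2 fold change over the root of F. Alternatives were DESeq2 1.42.0, RLE and total-count scaling, no filter and a stricter filter (1 CPM in 3 libraries), thinning, the replicate number as a block, the limits of the study and leaving out each library.

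The genes, the wider list and the marker lists (leukocyte, endothelial, skeletal myoblast, cardiomyocyte) were chosen with earlier results of these data known. Of the marker lists, 2 of 5 tested leukocyte genes rose and 1 fell, the 1 endothelial gene tested fell, 3 of 7 myoblast genes rose and 2 fell, and 3 of 7 cardiomyocyte genes rose. By the rule for names, per-library values were due for Cgas, Sting1, Rigi, Ifih1 and Mavs and for up to 8 genes a role with the largest change at an adjusted p under 0.05 and 5 CPM or more in the group with the higher mean. In the wider list up to 4 genes a role and direction were due, and 1 gene named by the rule is not reported here. Values of further genes of the list and of the wider list were added after they had been seen. Promoter windows came from RefSeq (GRCr8), and all 50 genes matched its annotation, which was otherwise used for names and neighbours only.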

Additional observations from a re-analysis of the deposited data

How the results depend on the processing

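No gene of the list changed direction in a way that reversed a call. Of the 18 genes that rose, 14 kept their call in every alternative, as did 7 of the 10 that fell and 9 of the 13 that did not pass. With the limits of the study, 8 genes were higher and 4 lower (sensors 0 and 1, signaling 3 and 2, interferon-stimulated 5 and 1), and 16 and 19 in the wider list. Of all genes, 10.8% were higher and 18.7% lower. The shares were 0.0% and 14.3% for sensors, 15.8% and 10.5% for signaling and 33.3% and 6.67% for interferon-stimulated genes. In the wider list they were 15.0% and 17.8%, and no difference from all genes was tested. Leaving out 1 library gave 1 to 2 sensors that rose.

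The median log2 fold change of members of the list, beside 0.24, was 0.29 with RLE scaling, 0.18 with total counts, 0.16 without a filter and 0.25 to 0.35 with 1 library left out. The median log2 fold change of sensors, beside -0.07, was -0.017 with RLE, -0.12 with total counts and -0.052 to 0.096 with 1 library left out, so the sign of that median was not stable. The median log2 fold change of signaling members, beside 0.10, was 0.15 with RLE, 0.043 with total counts and 0.044 to 0.16 with 1 library left out. The median log2 fold change of interferon-stimulated members, beside 0.68, was 0.38 with DESeq2, 0.31 without a filter, 0.85 with the stricter filter and 0.51 to 0.86 with 1 library left out. The DESeq2 and no-filter medians include more genes of low count. DESeq2 put the median of all genes at 0.06, against -0.05 with TMM.

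Libraries with the same number did not deviate together (correlations 0.045, -0.165 and -0.192), so the numbers were not taken as pairs. With the replicate number as a block, 17 genes rose and 10 fell. The 8 genes of the list with at most 9 counts in every library, such as Mx1 and Rsad2, allow no statement on a change at this depth.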
